A study of Homo sapiens with 12 samples.

Results

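The p53 target genes described here are 34 genes that the tumour suppressor p53 switches on, found in the count table by their symbols. All 34 were found among the 28395 genes of the count table, and 33 of them were among the 15853 genes tested. They are read across 4 stable lines of HCT116, an established human colorectal cancer cell line that carries wild-type p53. Each line has 3 RNA-seq libraries, 12 in all. EV cells carry the empty pcDNA3.1 vector. EHF cells carry pcDNA3.1 with the cDNA of EHF, an epithelial ETS-family transcription factor. CDX1 cells were transduced with an MSCV-IRES-GFP retrovirus that encodes CDX1, a homeobox transcription factor of the intestine, and were sorted for GFP. EHF+CDX1 cells are CDX1 cells that were then transfected with the EHF plasmid. The EV, EHF and EHF+CDX1 lines were selected with G418 and grown from resistant clones, while the CDX1 line was sorted and had no G418 selection. No line carries an empty retrovirus, so CDX1 and the retroviral transduction cannot be told apart. The labels do not say whether the 3 libraries of a line came from separate cultures, so p-values measure only the spread between these libraries. In its legend to the clustering of the RNA-seq data, the paper names fewer biological replicates than these 3. No line was treated with a DNA-damaging agent in the descriptions used here.

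p53 is kept low in unstressed cells by MDM2, a ubiquitin ligase that marks it for destruction and is itself a p53 target. DNA damage, oncogene activity or disturbed ribosome assembly frees p53, which binds response elements in or near its targets and raises their transcription. The targets fall into groups by role: feedback inhibitors of p53, genes that halt the cell cycle, DNA repair genes, intrinsic death genes, death receptors, metabolic genes and secreted factors. Several of these genes, among them GADD45A, PMAIP1, BBC3, TNFRSF10B and GDF15, are also known to be raised by ATF4 and CHOP, transcription factors of the integrated stress response, without p53.

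The libraries held 13523007 to 74186741 counts, so 3 reads correspond to 0.0375 to 0.207 CPM, the count scaled to a common library total. Levels of one gene are CPM with TMM factors, a scaling that corrects for a few abundant genes taking up reads. The scaling factors were 0.799 to 0.845 in CDX1 cells and 0.973 to 1.09 in the other lines. EHF RNA was at 19023 to 19628 CPM in EHF and 17105 to 19879 CPM in EHF+CDX1 cells, against 236 to 335 CPM in EV and 11.9 to 13.0 CPM in CDX1 cells. CDX1 RNA was at 487 to 558 CPM in CDX1 and 5105 to 5636 CPM in EHF+CDX1 cells, and at most 0.05 CPM in the other lines. Both transgenes were high in the lines labelled with them, and CDX1 RNA was 10.3-fold higher in EHF+CDX1 than in CDX1 cells. Of the colorectal epithelial markers, EPCAM, CDH1, KRT8, KRT18 and CLDN7 were at 99.3 CPM or more in every library, whereas CDH17, VIL1 and LGALS4 were at or near 0 in some. Of the leukocyte markers, PTPRC and CD3E were at 0.151 CPM or less and LYZ reached 19.4 CPM. Of the endothelial markers, PECAM1 and CDH5 were at 0.693 CPM or less and VWF reached 1.45 CPM. Of the fibroblast markers, COL1A2 and DCN were at 0.133 CPM or less, PDGFRB reached 1.38 CPM and COL1A1 was at 32.6 to 219 CPM. EV replicate 3 stood apart from the other EV libraries, by a chi-square of the counts over genes that came to 317 and 288 per degree of freedom, where EV replicates 1 and 2 gave 4.06. The counts of targets are given with and without this library, as are the values against EV whose call it changed. The counting is not stated to use strand, and 20 of the 34 genes overlap another annotated gene, FAS, TP53I3, MDM2, CDKN1A and XPC among them, so reads of such a neighbour cannot be told apart from theirs.

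A gene is said to have risen or fallen where edgeR's quasi-likelihood fit put its change beyond 1.5-fold at a Benjamini-Hochberg adjusted p under 0.05 over all 15853 genes. Against EV, 16 of the 33 tested p53 targets changed in at least 1 of the 3 other lines and 17 in none. The like share of all genes was not computed, but in CDX1 cells alone 21.3% of all genes rose and 23.3% fell. The 16 are therefore not read as a trait of the targets. CDKN1A and PMAIP1 were the 2 that changed in all 3 lines, and they rose in each. The share of all genes that changed in all 3 lines was not computed, so the 2 are likewise not read as a trait of the targets. In EHF cells 4 targets rose (12.1%; 5.68% of all tested genes rose) and none fell (2.65% of all fell). With CDX1 alone, 12 targets rose (36.4%; 21.3% of all) and 2 fell (6.06%; 23.3% of all). The 12 include SPATA18, which passed the filter on low counts through its CDX1 libraries alone. Without SPATA18, 11 of 32 rose, and 14 of 32 when EV replicate 3 was also left out. In EHF+CDX1 cells 3 targets rose (9.09%; 7.3% of all) and none fell (3.13% of all). At an unadjusted p under 0.05, edgeR gave 0 lower targets in EHF and 2 in EHF+CDX1 cells. With limma voom and DESeq2 none was lower in either line at an adjusted p under 0.05, and their unadjusted counts were not taken. The median log2 fold change of the 33 targets was 0.43 in EHF, 0.43 in CDX1 and 0.31 in EHF+CDX1 cells, while that of all tested genes was -0.04, -0.03 and -0.03. The median size of change, in either direction, was 0.69 for the targets and 0.83 for all genes in CDX1 cells, and 0.52 against 0.33 in EHF cells. Tested against no change, 14 targets were higher in EHF (14.9% of all genes) and 1 lower (15.1%), 18 higher in CDX1 (33.8%) and 4 lower (35.1%), and 13 higher in EHF+CDX1 cells (16.9%) and 3 lower (16.7%). These 3 comparisons share the EV libraries.

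Without EV replicate 3, the targets that rose numbered 7 in EHF (9.47% of all genes rose), 15 in CDX1 (26.2%) and 6 in EHF+CDX1 cells (11.2%), and those that fell numbered 0 (3.6%), 3 (24.9%) and 0 (4.4%). Scaling by total counts alone shifted the median of all genes in CDX1 cells to -0.37 and changed the share of higher calls over all genes from 47.8% to 30.8%. Under that scaling 9 targets rose (14.3% of all genes) and 4 fell (32.3% of all) in CDX1 cells, with a median of 0.11 over the 33 targets.

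**Figure D1:**
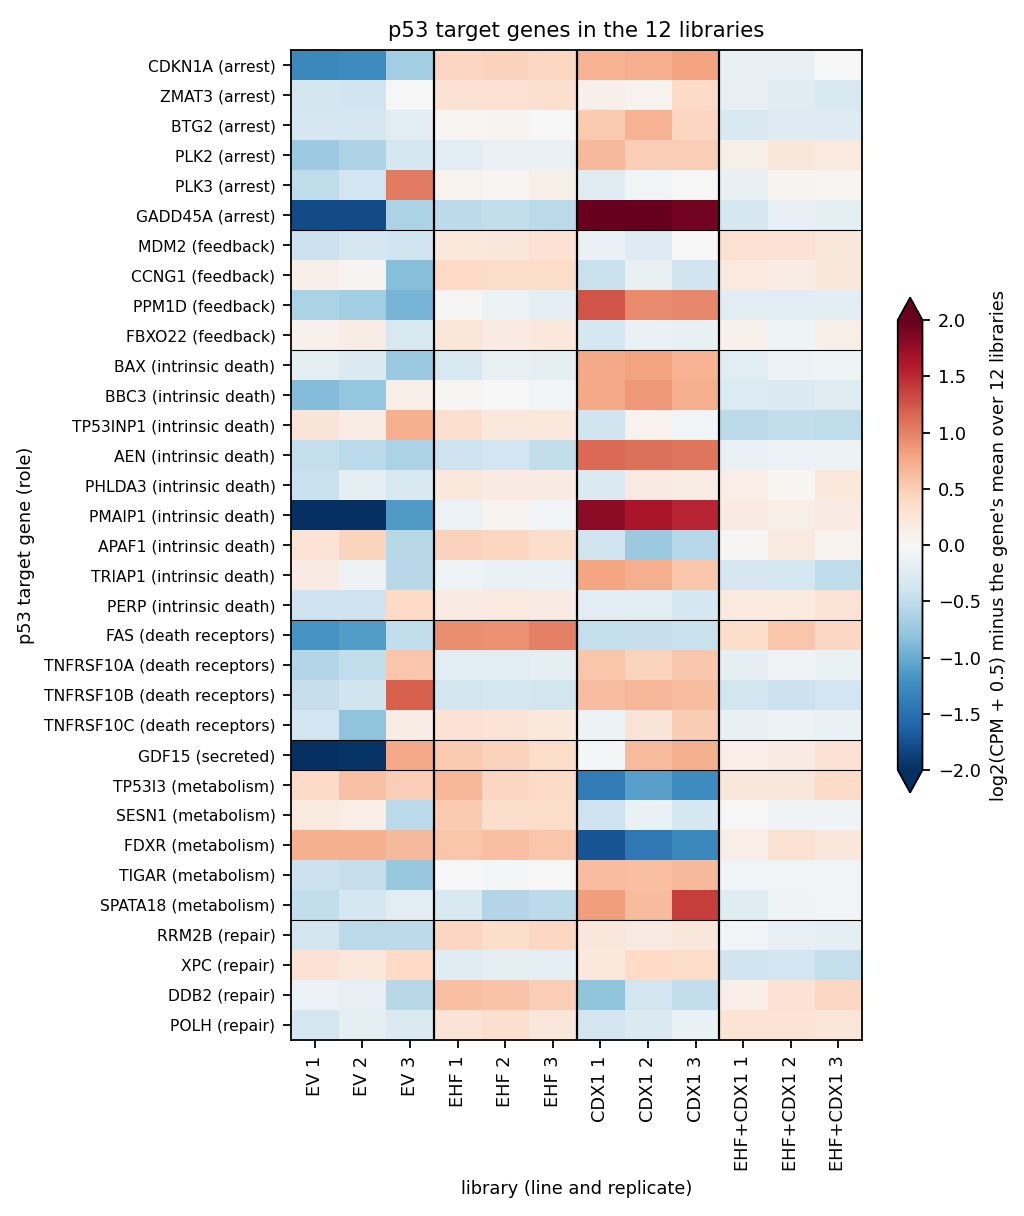
Level of the 33 tested p53 target genes in the 12 libraries, as log2(CPM + 0.5) minus the gene's mean over the libraries (red above, blue below; rows grouped by role, columns by line). GADD45A and PMAIP1 were highest in the 3 CDX1 libraries, FDXR and TP53I3 lowest there, and GDF15, TNFRSF10B and PLK3 were higher in EV replicate 3 than in EV replicates 1 and 2.

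**Figure D2:**
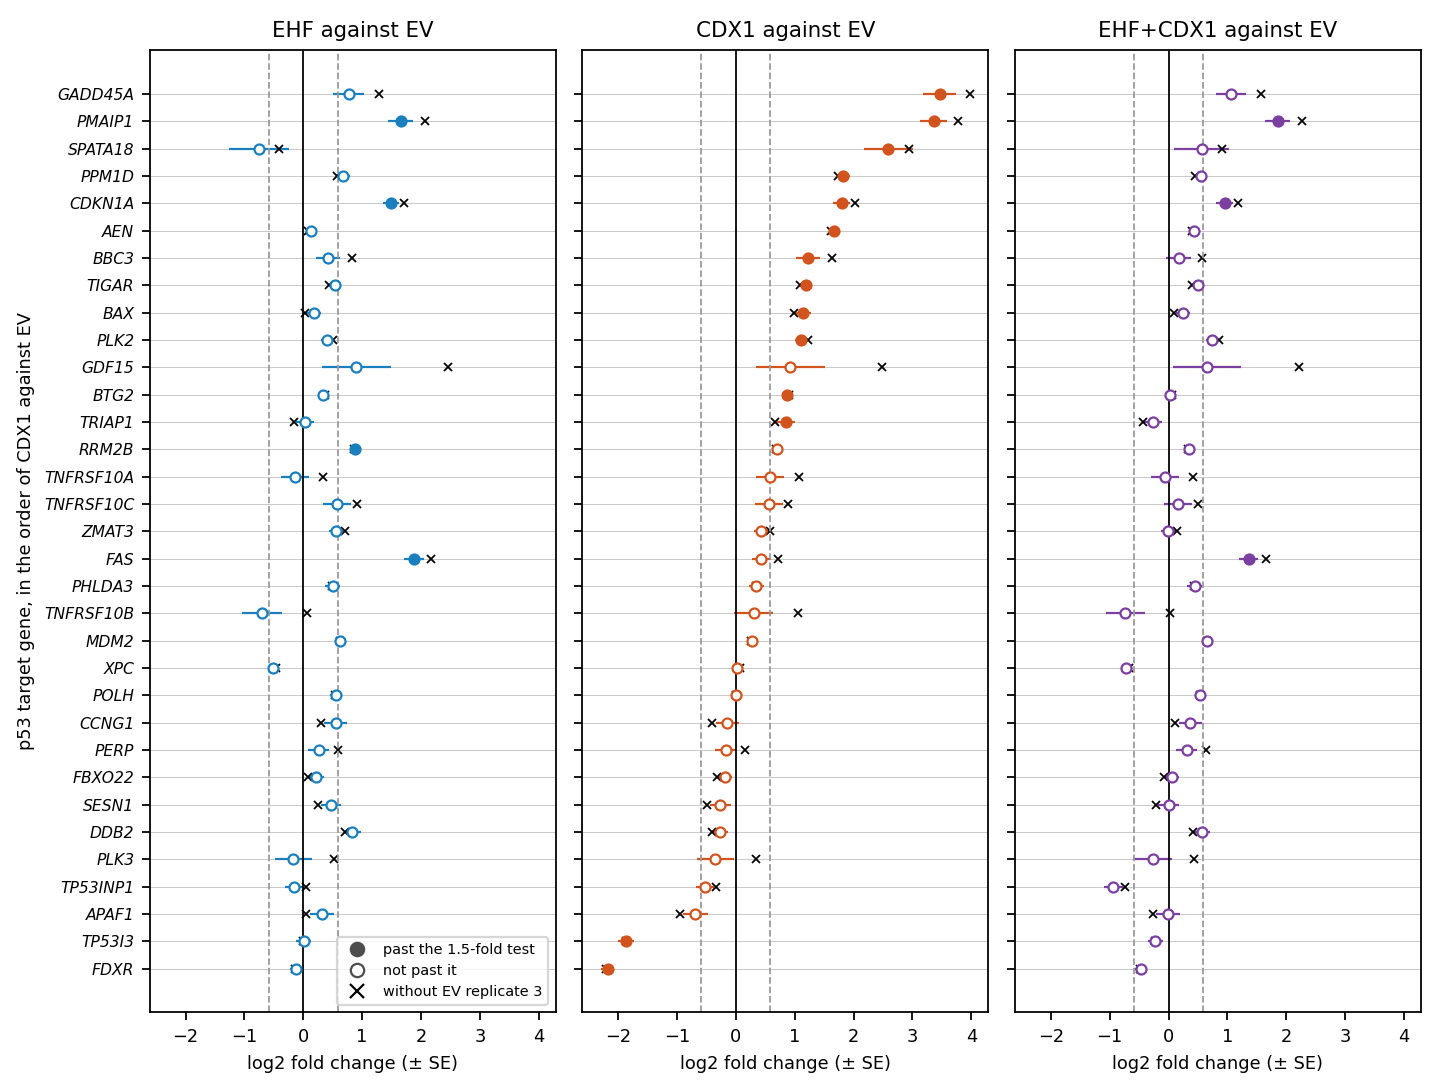
log2 fold change against EV with its standard error for each tested p53 target in the 3 other lines; filled points passed the 1.5-fold test (dashed lines), and crosses give the value without EV replicate 3. In CDX1 cells the values ran from -2.18 (FDXR) to 3.46 (GADD45A), and the crosses of GDF15 lie apart from its points in all 3 comparisons.

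Of the 4 feedback inhibitors of p53, PPM1D rose in CDX1 cells and the other 3 passed the test in no comparison with EV. PPM1D encodes WIP1, a phosphatase that removes activating phosphates from p53 and its kinases. Its level was 35.1, 33.6 and 28.4 CPM in EV, 55.7, 51.2 and 47.9 in EHF, 132, 105 and 107 in CDX1 and 47.3, 47.1 and 46.8 in EHF+CDX1 cells. The CDX1 libraries were above all 9 others, a log2 fold change of 1.83 ± 0.12 against EV (adjusted p = 5.52e-07), that is 3.55-fold. MDM2 was at 129, 137 and 131 CPM in EV, 200, 202 and 211 in EHF, 159, 145 and 174 in CDX1 and 214, 211 and 202 in EHF+CDX1 cells. The EHF and EHF+CDX1 libraries lay above those of EV and CDX1 without overlap, but at log2 fold changes of 0.63 ± 0.08 and 0.66 ± 0.08 they did not pass the 1.5-fold test (adjusted p = 0.617 and 0.375). Against no change, the adjusted p was 0.000180 and 0.000109. For MDM2 in CDX1 cells the value was 0.27 ± 0.08, and its sign turned to -0.0772 with total counts and to -0.0497 with limma voom. CCNG1, which recruits a phosphatase to MDM2, gave 0.55 ± 0.20, -0.15 ± 0.20 and 0.37 ± 0.20 in EHF, CDX1 and EHF+CDX1 cells. FBXO22, a ubiquitin ligase subunit that acts on p53, gave values between -0.19 and 0.22.

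Among the 6 cell cycle arrest genes, CDKN1A rose in all 3 lines, and GADD45A, PLK2 and BTG2 rose in CDX1 cells. CDKN1A encodes p21, the inhibitor of cyclin-dependent kinases through which p53 arrests cells in G1. It was at 150.0, 154 and 227 CPM in EV, 494, 508 and 491 in EHF, 593, 611 and 644 in CDX1 and 330.4, 332 and 365 in EHF+CDX1 cells. On this TMM scale the 4 lines did not overlap, with EV lowest, then EHF+CDX1, EHF and CDX1 cells. The order of the upper 2 depends on the scaling. By the deposited log2 RPKM values CDKN1A was higher in EHF (7.68 ± 0.03) than in CDX1 cells (7.50 ± 0.12). The log2 fold change against EV was 1.49 ± 0.14 in EHF (adjusted p = 0.000189), 1.80 ± 0.14 in CDX1 (adjusted p = 4.05e-06) and 0.95 ± 0.14 in EHF+CDX1 cells (adjusted p = 0.0286). The last call was lost without EV replicate 1 or 2 or without EHF+CDX1 replicate 1 or 3 (adjusted p = 0.102, 0.0987, 0.0520 and 0.0970), and with DESeq2 (0.113). Over all alternatives, the test against no change included, its adjusted p ran from 2.63e-08 to 0.130.

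GADD45A, a growth arrest and DNA damage protein that binds PCNA and p21, had the largest increase of the 33 targets in CDX1 cells. Its level was 33.3, 33.5 and 75.5 CPM in EV, 81.2, 82.5 and 80.3 in EHF, 601, 529 and 444 in CDX1 and 92.1, 104 and 103 in EHF+CDX1 cells. The CDX1 libraries were 11.0-fold above EV on average (log2 fold change 3.46 ± 0.28, adjusted p = 1.38e-06), and EV replicate 3 was 2.24-fold above EV replicates 1 and 2. In EHF and EHF+CDX1 cells GADD45A did not pass the test (0.77 ± 0.26, adjusted p = 0.524; 1.06 ± 0.26, adjusted p = 0.105). It rose in both when EV replicate 3 was left out, with log2 fold changes of 1.28 and 1.57 (adjusted p = 3.48e-06 and 3.67e-08). PLK2, a polo-like kinase that acts at centrioles, was at 73.3, 78.6 and 94.6 CPM in EV, 103, 111 and 111 in EHF, 190.0, 171 and 170.1 in CDX1 and 132, 142 and 139.5 in EHF+CDX1 cells. All 4 lines were apart on this TMM scale. By the deposited log2 RPKM values PLK2 was level in CDX1 (5.69 ± 0.03) and EHF+CDX1 cells (5.71 ± 0.07). The change in CDX1 cells against EV was 1.11 ± 0.10 (adjusted p = 0.000117), and limma voom gave an adjusted p of 0.0728 for it. PLK2 in EHF+CDX1 cells gave 0.75 ± 0.10 (adjusted p = 0.148) and rose there without EV replicate 3 (adjusted p = 0.000615). BTG2, an antiproliferative partner of the mRNA deadenylase, rose by 0.86 ± 0.08 in CDX1 cells (adjusted p = 0.00237), a call lost with total counts and with limma voom (adjusted p = 0.693 and 0.455). ZMAT3, an RNA-binding splicing regulator, gave 0.56 ± 0.12, 0.43 ± 0.12 and -0.00 ± 0.12 in EHF, CDX1 and EHF+CDX1 cells. PLK3, a stress-responsive polo-like kinase, gave -0.17 ± 0.32, -0.35 ± 0.32 and -0.26 ± 0.32 in EHF, CDX1 and EHF+CDX1 cells with all libraries and 0.53, 0.35 and 0.43 without EV replicate 3, so its sign turned in all 3. Its level in EV replicate 3 was 2.80-fold above that in EV replicates 1 and 2.

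Of the 4 DNA repair genes, RRM2B rose in EHF cells. RRM2B encodes the p53-inducible subunit of ribonucleotide reductase, which supplies nucleotides for repair. It was at 42.1, 37.2 and 37.9 CPM in EV, 73.8, 69.5 and 72.8 in EHF, 64.0, 62.1 and 63.9 in CDX1 and 52.3, 48.9 and 48.2 in EHF+CDX1 cells. No library of one line overlapped another line's, and the log2 fold changes were 0.88 ± 0.08 in EHF (adjusted p = 0.00522), 0.70 ± 0.08 in CDX1 (adjusted p = 0.0594) and 0.35 ± 0.08 in EHF+CDX1 cells. DDB2 and XPC recognise ultraviolet damage for nucleotide excision repair, and POLH copies past it. DDB2 gave 0.84 ± 0.14, -0.27 ± 0.14 and 0.56 ± 0.14 in EHF, CDX1 and EHF+CDX1 cells. XPC gave -0.52 ± 0.08, 0.02 ± 0.08 and -0.73 ± 0.08. POLH gave 0.55 ± 0.09, 0.01 ± 0.09 and 0.54 ± 0.09. None of these 9 values passed the 1.5-fold test.

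The intrinsic death genes, not all of which act in the mitochondrial pathway, held the second largest increase, that of PMAIP1. Of these 9 genes 5 rose in CDX1 cells (21.3% of all genes), TRIAP1 among them, whose call did not hold in most alternatives. PMAIP1 encodes NOXA, a BH3-only protein that neutralises MCL1. Its level was 16.1, 17.0 and 32.3 CPM in EV, 65.8, 73.9 and 68.6 in EHF, 249, 223 and 208 in CDX1 and 80.4, 77.6 and 80.5 in EHF+CDX1 cells. The 4 lines did not overlap. PMAIP1 rose in EHF (1.66 ± 0.21, adjusted p = 0.00133), in CDX1 (3.36 ± 0.23, adjusted p = 3.20e-07) and in EHF+CDX1 cells (1.85 ± 0.22, adjusted p = 0.000365), that is 3.16-fold, 10.3-fold and 3.61-fold. BAX, which opens the outer mitochondrial membrane, was at 62.6, 57.7 and 42.3 CPM in EV, 56.7, 64.1 and 62.5 in EHF, 120.5, 124 and 115 in CDX1 and 60.9, 65.2 and 66.6 in EHF+CDX1 cells. Of the 3 comparisons with EV it passed the test in that of CDX1 cells (1.15 ± 0.13, adjusted p = 0.000356; 0.0692 with total counts alone), and the EHF libraries overlapped those of EV. BBC3 encodes PUMA, a BH3-only activator of BAX, and was at 26.0, 27.8 and 52 CPM in EV, 49.0, 47.7 and 46.4 in EHF, 81.6, 87.9 and 79.7 in CDX1 and 39.8, 39.4 and 40.5 in EHF+CDX1 cells. Here EV replicate 3 lay above every EHF and EHF+CDX1 library. BBC3 rose in CDX1 cells (1.23 ± 0.21, adjusted p = 0.00320; 0.0714 with limma voom) and, without EV replicate 3, also in EHF cells (0.82, adjusted p = 0.00361; 0.43 ± 0.20 with it).

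AEN, a nuclease that fragments DNA in dying cells, was at 77.7, 74.5 and 69.8 CPM in EV, 81.4, 83.5 and 77.2 in EHF, 240.3, 234 and 228 in CDX1 and 99.4, 100.4 and 101 in EHF+CDX1 cells. It rose 3.16-fold in CDX1 cells (log2 fold change 1.66 ± 0.08, adjusted p = 6.93e-08) and stayed within a log2 fold change of 0.44 in the other 2. TRIAP1, which stops apoptosome formation and thus opposes cell death, rose by 0.85 ± 0.15 in CDX1 cells (adjusted p = 0.0372). That call was lost without EV replicate 3, without CDX1 replicate 1 and without CDX1 replicate 2 (adjusted p = 0.128, 0.0951 and 0.0710), and with DESeq2 and limma voom (0.255 and 0.181). The other 4 genes passed the test in no comparison with EV. They are APAF1, the scaffold of the apoptosome, TP53INP1, a stress protein of autophagy and cell death, PHLDA3, an inhibitor of AKT, and PERP, a desmosomal membrane protein. APAF1 gave -0.69 ± 0.21 in CDX1 cells (adjusted p = 0.238) and fell there without EV replicate 3 (-0.95, adjusted p = 0.000930). PHLDA3 gave 0.50 ± 0.12, 0.35 ± 0.12 and 0.45 ± 0.12 in EHF, CDX1 and EHF+CDX1 cells, and PERP gave 0.26 ± 0.18, -0.17 ± 0.18 and 0.31 ± 0.18. Without EV replicate 3 the PERP values were 0.59, 0.16 and 0.64, with the sign turned in CDX1 cells. TP53INP1 had the lowest value in EHF+CDX1 cells of all 33 targets, -0.94 ± 0.16 (adjusted p = 0.0534).

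The 250 bases before the start site are shown for PMAIP1, the target with the largest rise for which a promoter sequence was at hand, and for FDXR, the one with the largest fall. Both were read from RefSeq's GRCh38.p14 table, which held a promoter for 26 of the 34 targets. PMAIP1 lies at chr18:59899746-59899995 on the plus strand, and FDXR at chr17:74872995-74873244 on the minus strand. Capitals mark matches, on either strand, to the p53 half-site, the ATF element TGACGTCA, the ATF4-CHOP element TGATGCAA, TTTATG as bound by CDX factors and AGGAAG as bound by ETS factors.
PMAIP1: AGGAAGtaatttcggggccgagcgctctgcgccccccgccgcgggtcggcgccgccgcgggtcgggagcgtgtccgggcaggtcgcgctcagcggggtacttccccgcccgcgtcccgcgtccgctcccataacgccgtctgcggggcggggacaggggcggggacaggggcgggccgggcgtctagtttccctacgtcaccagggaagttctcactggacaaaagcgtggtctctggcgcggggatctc
FDXR: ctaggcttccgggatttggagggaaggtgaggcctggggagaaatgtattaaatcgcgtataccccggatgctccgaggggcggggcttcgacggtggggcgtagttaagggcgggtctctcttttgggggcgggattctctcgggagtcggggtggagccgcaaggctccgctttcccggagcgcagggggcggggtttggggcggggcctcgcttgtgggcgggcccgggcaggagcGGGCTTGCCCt
FDXR held 1 stretch that matches the p53 half-site pattern on both strands, at bases -11 to -2 before the start. PMAIP1 held 1 AGGAAG, at bases -250 to -245, and no half-site in this window. A half-site was in 5 of the 38 promoters of the targets (13.2%; AEN, FAS, FDXR, PLK2 and SESN1) and in 5.57% of all 35116 promoters of the same length. AGGAAG was in 23.7% of the targets' promoters and 28.7% of all, TTTATG in 2.63% and 9.64%, TGACGTCA in 2.63% and 1.65%, and TGATGCAA in 0% and 0.772%. A match is a run of letters and not a measured binding site.

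Among the death receptors, FAS rose in EHF and EHF+CDX1 cells, and the others passed the test in no comparison with EV. FAS, the receptor of FAS ligand, was at 8.01, 8.42 and 13.3 CPM in EV, 36.4, 36.0 and 38.3 in EHF, 13.3, 13.5 and 13.7 in CDX1 and 24.0, 27.8 and 25.3 in EHF+CDX1 cells. The EHF libraries were highest, the EHF+CDX1 libraries next, and the CDX1 libraries lay just above EV replicate 3. The log2 fold change was 1.88 ± 0.17 in EHF (adjusted p = 5.26e-05), 1.36 ± 0.16 in EHF+CDX1 (adjusted p = 0.00110) and 0.43 ± 0.16 in CDX1 cells (adjusted p = 0.779). FAS and RRM2B are the 2 targets that rose in EHF and not in CDX1 cells, and the direct test of EHF against CDX1 cells was not run. TNFRSF10B, the TRAIL receptor DR5, was at 181, 189.8 and 572 CPM in EV, 194, 196 and 194 in EHF, 385, 394 and 384 in CDX1 and 193, 185 and 190.3 in EHF+CDX1 cells. EV replicate 3 was above every other library, 3.08-fold over EV replicates 1 and 2. TNFRSF10B, TNFRSF10A, which encodes DR4, and TNFRSF10C, a decoy receptor for TRAIL, gave log2 fold changes of 0.30 ± 0.34, 0.58 ± 0.24 and 0.56 ± 0.24 in CDX1 cells. When EV replicate 3 was left out, all 3 rose there, by 1.06, 1.06 and 0.89 (adjusted p = 8.11e-09, 4.40e-07 and 0.0376). EDA2R, the ectodysplasin A2 receptor, was not tested, since it had at most 15 reads in any library.

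The metabolic targets moved in both directions in CDX1 cells, with TIGAR higher and FDXR and TP53I3 lower. FDXR, the mitochondrial ferredoxin reductase, was at 129, 129 and 124 CPM in EV, 116, 120.0 and 116 in EHF, 23.3, 28.9 and 32.0 in CDX1 and 86.0, 97.8 and 92.6 in EHF+CDX1 cells. The CDX1 libraries were 4.54-fold below EV (-2.18 ± 0.11, adjusted p = 6.93e-08), and the EHF+CDX1 libraries lay between them and EHF (-0.47 ± 0.11 against EV). TP53I3 (PIG3), a quinone oxidoreductase linked to oxidative stress, was at 12.1, 13.9 and 13.0 CPM in EV, 14.7, 12.4 and 12.1 in EHF, 3.15, 4.04 and 3.52 in CDX1 and 10.7, 10.7 and 12 in EHF+CDX1 cells. It fell 3.63-fold in CDX1 cells (-1.86 ± 0.14, adjusted p = 1.67e-06). Both calls held in every alternative run, with log2 fold changes from -2.52 to -2.06 for FDXR and from -2.20 to -1.54 for TP53I3. TIGAR, which lowers glycolytic flux, was at 23.0, 22.6 and 18.2 CPM in EV, 31.2, 30.5 and 31.1 in EHF, 48.2, 47.8 and 49.1 in CDX1 and 29.9, 30.1 and 30.1 in EHF+CDX1 cells. It rose in CDX1 cells (1.19 ± 0.10, adjusted p = 2.39e-05), while the EHF and EHF+CDX1 libraries were close to each other and above EV without passing the test. SPATA18, a mitochondrial quality control protein, was at 0.129, 0.189 and 0.257 CPM in EV, 0.213, 0.0840 and 0.112 in EHF, 1.07, 0.858 and 1.80 in CDX1 and 0.244, 0.341 and 0.345 in EHF+CDX1 cells. These are 3 to 14 reads per EV library and 34 to 70 per CDX1 library, and SPATA18 passed the filter on low counts through its CDX1 libraries alone. A gene that enters the test this way had to differ, so its log2 fold change in CDX1 cells, 2.59 ± 0.42, is a description. Without SPATA18, 11 of 32 targets rose in CDX1 cells, and 10 were lower in EHF+CDX1 than in CDX1 cells. SESN1, a sestrin that restrains mTORC1, gave 0.47 ± 0.18, -0.27 ± 0.18 and 0.00 ± 0.18 in EHF, CDX1 and EHF+CDX1 cells.

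**Figure D3:**
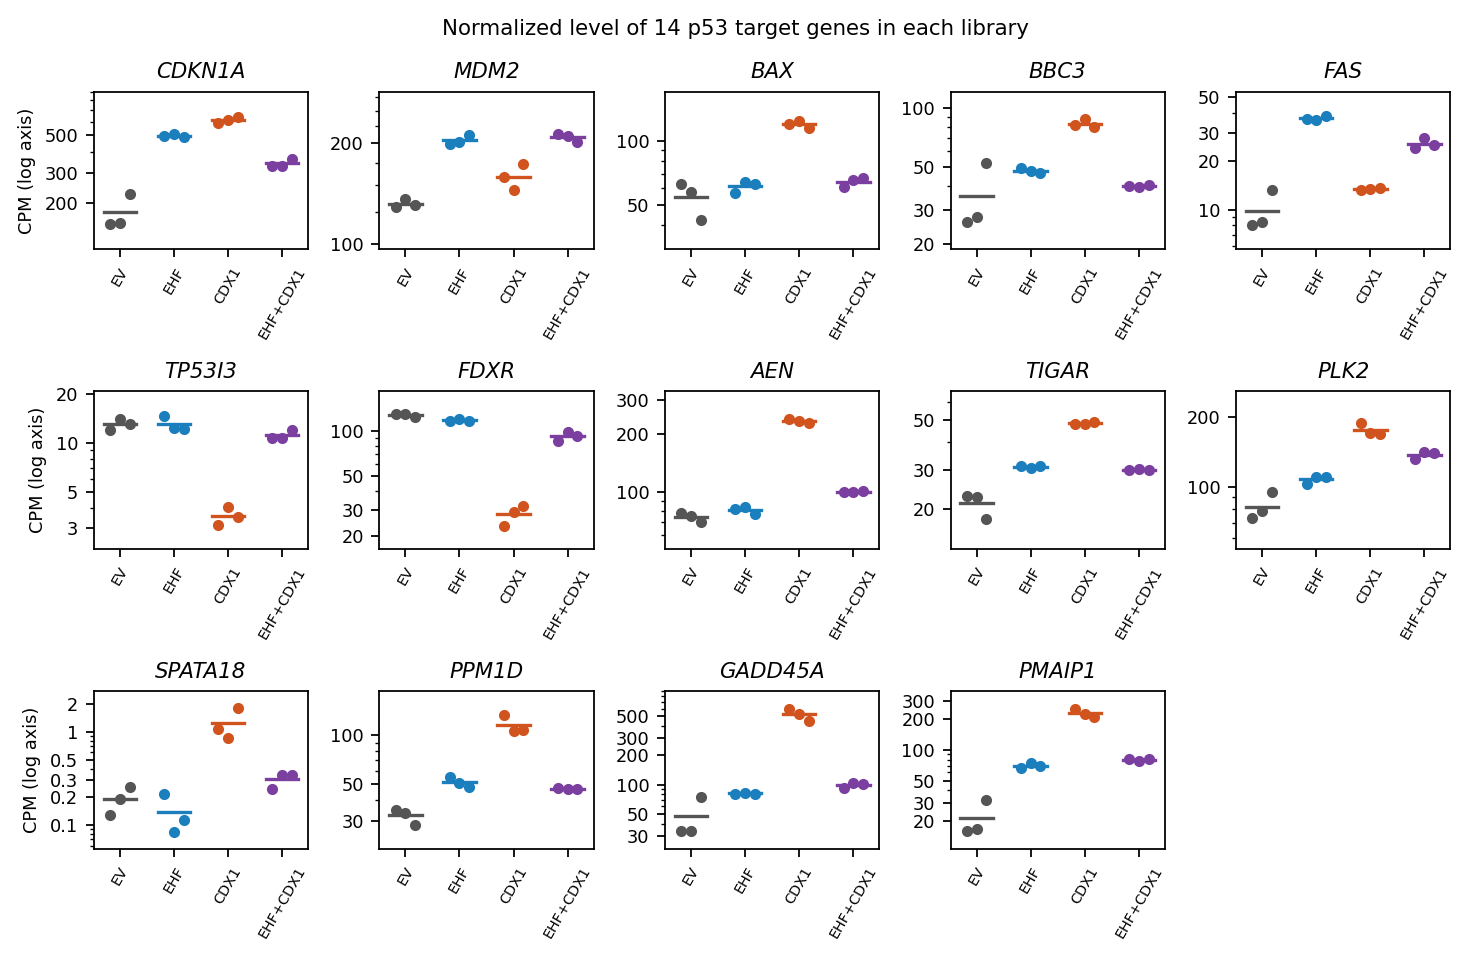
Level in CPM (log axis, a scale of its own for each gene) of 14 p53 target genes in each library; points are libraries, bars the mean of 3. CDX1 cells were highest for GADD45A and PMAIP1 and lowest for FDXR and TP53I3, and EHF cells were highest for FAS.

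GDF15, a secreted cytokine of the TGF-beta superfamily, was the target on which EV replicate 3 bore most. Its level was 73.3, 78.8 and 518 CPM in EV, 439, 421 and 394 in EHF, 299, 475 and 502 in CDX1 and 338, 344 and 378 in EHF+CDX1 cells. EV replicate 3 was 6.78-fold above EV replicates 1 and 2 and above every library of the other lines. With all libraries, the log2 fold changes were 0.90 ± 0.58, 0.93 ± 0.58 and 0.66 ± 0.58 in EHF, CDX1 and EHF+CDX1 cells, and none passed the test (adjusted p = 0.336 in CDX1 cells). Leaving out that library, GDF15 rose in all 3, by 2.46, 2.48 and 2.22 (adjusted p = 5.05e-09, 5.30e-10 and 2.16e-08). Of the 33 targets, 5 were more than 2-fold higher in EV replicate 3 than in the mean of EV replicates 1 and 2 (15.2%; 10.0% of all genes) and 0 more than 2-fold lower (4.78% of all genes). Of the 99 log2 fold changes of the targets against EV, 15 changed sign when that library was left out, and none of the 15 was called either way. Beside PLK3 and PERP, they include TNFRSF10B in EHF (-0.69 ± 0.34 with it, 0.07 without) and in EHF+CDX1 cells (-0.73 ± 0.34 and 0.03).

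**Figure D4:**
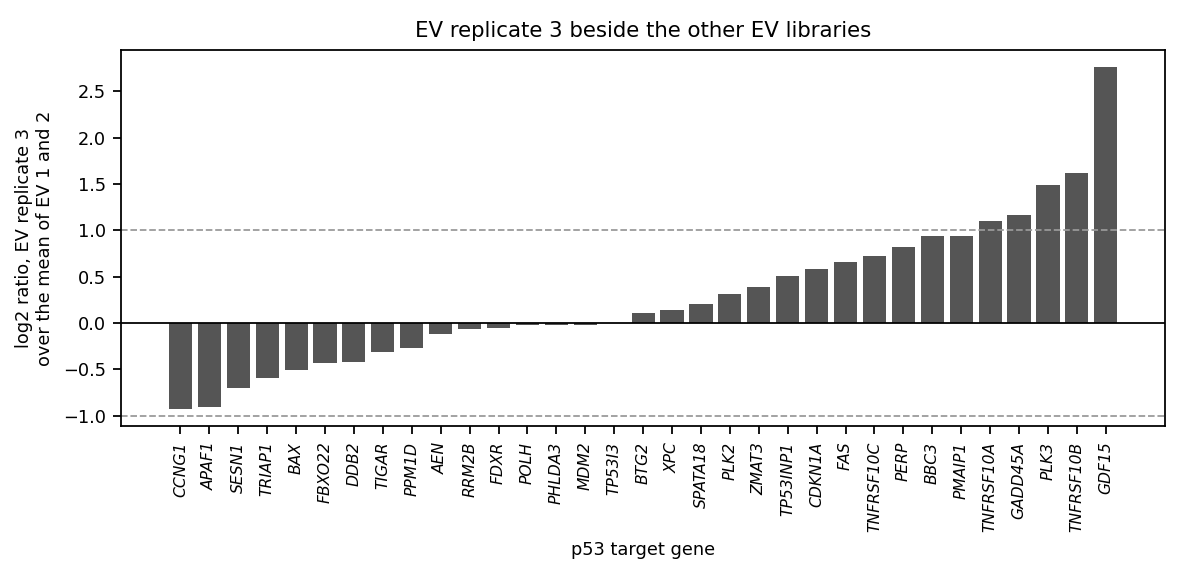
log2 ratio of the level in EV replicate 3 to the mean of EV replicates 1 and 2 (both as CPM + 0.5) for the 33 tested targets, in ascending order; dashed lines mark 2-fold. GDF15, TNFRSF10B, PLK3, GADD45A and TNFRSF10A lie above 2-fold, and CCNG1 at -0.93 and APAF1 at -0.91 are the lowest.

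EHF+CDX1 cells were compared with CDX1 cells, from which they were made by adding EHF. The 2 lines also differ in mean CDX1 RNA, 5415 CPM in EHF+CDX1 and 525 CPM in CDX1 cells. Only the EHF+CDX1 cells were G418-selected and grown from clones. EHF, the CDX1 level and the selection cannot be told apart here. In this comparison 4 targets were higher in EHF+CDX1 cells (12.1%; 22.3% of all genes) and 11 lower (33.3%; 18.7% of all). FAS, TP53I3, FDXR and DDB2 rose and CDKN1A, BAX, BBC3, XPC, AEN, BTG2, SPATA18, PPM1D, GADD45A, PMAIP1 and TRIAP1 fell. SPATA18 passed the filter on low counts through its CDX1 libraries alone, so its place in this list is a description. Without it 10 of 32 targets were lower. GADD45A fell by 2.40 ± 0.27 (adjusted p = 4.02e-05) and PMAIP1 by 1.51 ± 0.21 (adjusted p = 0.000550) on the log2 scale. FDXR rose by 1.71 ± 0.11 (adjusted p = 1.12e-06) and TP53I3 by 1.64 ± 0.13 (adjusted p = 9.41e-06). Calls lost when 1 library was left out were CDKN1A (without CDX1 replicate 3, EHF+CDX1 replicate 1 or EHF+CDX1 replicate 2; adjusted p = 0.0721, 0.0725 and 0.0757), FAS (without EHF+CDX1 replicate 2; 0.0599), XPC (without CDX1 replicate 2 or 3 or EHF+CDX1 replicate 3; 0.0694, 0.0625 and 0.0734) and DDB2 (without CDX1 replicate 1 or EHF+CDX1 replicate 2 or 3; 0.148, 0.0577 and 0.110). The count of lower targets was 6 with limma voom (16.3% of all genes), 7 with DESeq2 and 5 with total counts alone (11.1%), where 8 were higher (32%) and the share of higher calls over all genes was 74.2% in place of 54.3%. DESeq2 lost CDKN1A, BAX, BBC3, XPC, FAS and DDB2. Against no change, 9 targets were higher (34.9% of all genes) and 18 lower (32.3%). Without EV replicate 3, 4 were higher (25.8% of all genes) and 13 lower (22.3%).

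The comparison of EHF+CDX1 with EHF cells reads the addition of CDX1 together with the retroviral transduction. edgeR called 0 targets higher (2.49% of all genes) and 0 lower (0.189% of all), and at an unadjusted p under 0.05 it gave 1 higher and 1 lower. DESeq2 and limma voom also called 0 in each direction. The 33 log2 fold changes ran from -0.78 (TP53INP1) to 1.31 (SPATA18), with a median of -0.19. Tested against no change, 1 target was higher (5.65% of all genes) and 5 lower (4.13%). With EV replicate 3 left out of the fit, edgeR again called 0 higher (3.32%) and 0 lower (0.826%), with 1 and 1 at an unadjusted p under 0.05. CDX1 RNA differed between these lines from near 0 to 5105 to 5636 CPM, 10.3-fold above its level in CDX1 cells.

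The interaction of EHF and CDX1 asks whether EHF+CDX1 cells depart from the sum of the 2 single changes on the log2 scale. It was below that sum for 12 targets (36.4%; 18% of all genes) and above it for 2 (6.06%; 20.2% of all), FDXR and TP53I3. The 12 were CDKN1A, BAX, BBC3, ZMAT3, RRM2B, AEN, BTG2, TIGAR, PPM1D, GADD45A, PMAIP1 and TRIAP1. For CDKN1A the 2 single changes were 1.49 and 1.80, the combined change was 0.95, and the interaction was -2.34 ± 0.20 (adjusted p = 8.03e-06). For PMAIP1 they were 1.66, 3.36 and 1.85, with an interaction of -3.17 ± 0.30 (adjusted p = 1.16e-05). With EV replicate 3 left out, 18 targets were below the sum (24.3% of all genes) and 2 above it (23.4%). Against no change, 15 targets were below the sum (28.3% of all genes) and 2 above it (30.2%). With total counts alone 9 were below (12.4% of all genes) and 2 above (28%), and the share of higher calls over all genes was 69.2% in place of 52.9%. Endogenous EHF RNA was 24.3-fold lower in CDX1 than in EV cells, CDX1 RNA was higher in EHF+CDX1 than in CDX1 cells, and these lines differ in G418 selection, so the lines are not 4 combinations of 2 fixed doses.

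The other lists place the targets beside related genes. Of 23 tested regulators and cofactors of p53, 9 rose (39.1%; 21.3% of all genes) and 4 fell (17.4%; 23.3% of all) in CDX1 cells, with PPP1R13L (iASPP, an inhibitor of p53) at 2.65 ± 0.25, TP73, a relative of p53, at -2.44 ± 0.16 and SIRT1, a deacetylase of p53, at 2.30 ± 0.12. In EHF+CDX1 cells PRKDC, the catalytic subunit of DNA-dependent protein kinase, was the 1 regulator that changed, at -1.07 ± 0.10 (4.35% of the list; 3.13% of all genes fell). In EHF cells edgeR called 0 of the 23 (5.68% of all genes rose and 2.65% fell), with 1 higher and 1 lower at an unadjusted p under 0.05. Of 28 further p53 targets tested, 7 rose (25.0%) and 6 fell (21.4%) in CDX1 cells, near the shares of all genes (21.3% and 23.3%), and their median log2 fold change was 0.01. IER5 at 3.51 ± 0.12, BTG1 at 3.37 ± 0.25 and DDIT4 at 2.59 ± 0.45 had the largest changes. In EHF+CDX1 cells 2 rose (7.14%; 7.3% of all) and 1 fell (3.57%; 3.13% of all), with KITLG at -1.20 ± 0.15, SERPINB5 at 1.16 ± 0.11 and FUCA1 at 0.88 ± 0.13. In EHF cells 2 rose (7.14%; 5.68% of all), FUCA1 at 1.40 ± 0.13 and SERPINB5 at 1.29 ± 0.11. Without EV replicate 3 these 28 gave 10 up (35.7%) and 9 down (32.1%) in CDX1, 8 up (28.6%) and 2 down (7.14%) in EHF+CDX1 and 6 up (21.4%) and 1 down (3.57%) in EHF cells. The 23 regulators then gave 11 up and 4 down, 1 up and 1 down, and 2 up and 1 down. In the same fits 26.2% of all genes rose and 24.9% fell in CDX1, 11.2% and 4.4% in EHF+CDX1 and 9.47% and 3.6% in EHF cells.

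Of 24 cell cycle genes that p21 and the DREAM complex repress, 12 fell in CDX1 cells (50%; 23.3% of all genes) and 12 did not pass the test. The median log2 fold change was -1.12 there, with MCM4 at -3.46 ± 0.32, E2F1 at -3.36 ± 0.20 and MCM2 at -2.54 ± 0.34. In EHF+CDX1 cells 1 gene changed (4.17%; 7.3% of all genes rose), MYBL2, which was higher at 1.37 ± 0.25, and the median was 0.37. In EHF cells edgeR called 0, with 1 higher and 0 lower at an unadjusted p under 0.05 and a median of 0.22, while CDKN1A was 2.81-fold above EV. The summed level of the 24 genes was 4239, 4121 and 1463 CPM in the EV libraries, 3161 to 3225 in EHF, 1154 to 1386 in CDX1 and 3719 to 3799.8 in EHF+CDX1 cells. EV replicate 3 thus lay near the CDX1 libraries. Without it 22 of the 24 fell in CDX1 (91.7%; 24.9% of all genes), 2 in EHF (8.33%; 3.6%) and 1 in EHF+CDX1 cells (4.17%; 4.4%), with medians of -1.44, -0.18 and -0.03.

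Of 10 genes of ATF4 and CHOP, 7 rose in CDX1 cells (70%; 21.3% of all genes), with a median log2 fold change of 1.84. ATF3, a stress-induced transcription factor, was at 17.9, 15.9 and 59.4 CPM in EV and 729, 684 and 644 in CDX1 cells, a log2 fold change of 4.45 ± 0.43. VLDLR, a lipoprotein receptor, gave 3.84 ± 0.57 from at most 1.62 CPM. That is so near the 0.5 CPM filter that its changes, as those of SPATA18, are a description, though it is among the 7. DDIT3, which encodes CHOP, gave 2.81 ± 0.66. DDIT3 was at 5.85, 5.63 and 52.7 CPM in EV, 22.5, 21.2 and 21.4 in EHF, 142, 154 and 165 in CDX1 and 24.9, 26.9 and 31.0 in EHF+CDX1 cells. In EHF+CDX1 cells 1 of the 10 rose (10.0%; 7.3% of all), and this was VLDLR with its low level. In EHF cells edgeR called 0 (0 in either direction also at an unadjusted p under 0.05). Leaving out EV replicate 3, 9 rose in CDX1 (90%; 26.2% of all genes), 8 in EHF+CDX1 (80%; 11.2%) and 5 in EHF cells (50%; 9.47%). The summed level of the 10 genes was 594, 583 and 1299 CPM in the EV libraries, 822 to 855 in EHF, 2832 to 2944 in CDX1 and 905 to 1031 in EHF+CDX1 cells. The summed level of the p53 targets was 1699.7, 1719 and 2814 CPM in the EV libraries, 2837 to 2898 in EHF, 3891 to 4007 in CDX1 and 2531 to 2647 in EHF+CDX1 cells. The part of the ATF4 and CHOP genes in the changes of GADD45A, PMAIP1, BBC3, TNFRSF10B and GDF15 was not tested. Protein levels, p53 activity and p53 binding were not measured in these files.

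**Figure D5:**
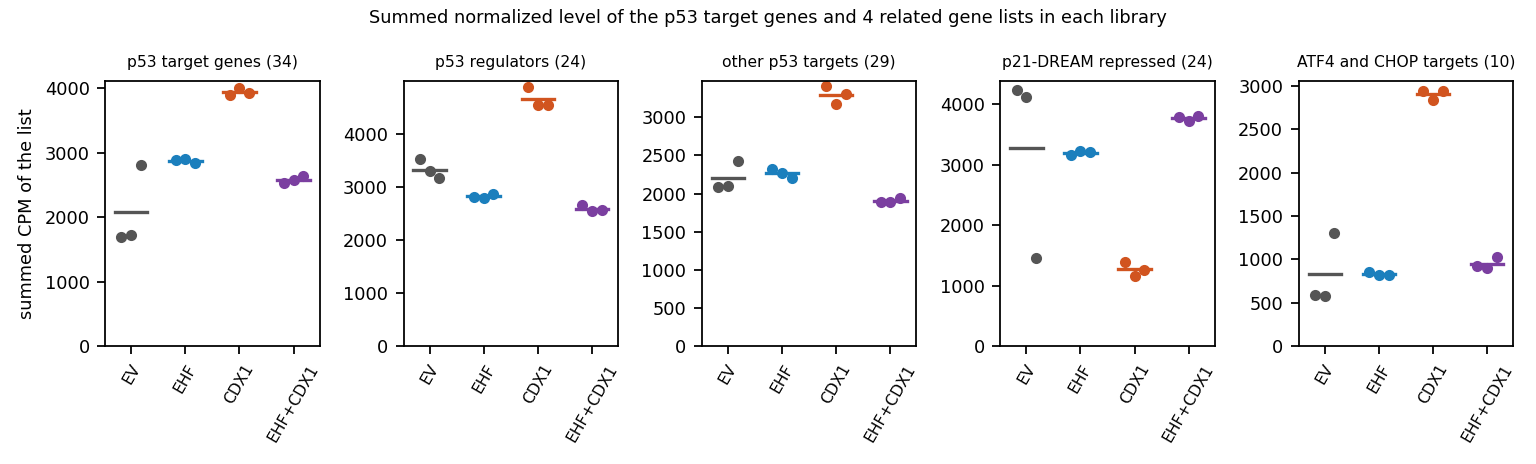
Summed level in CPM of the p53 target genes and 4 related gene lists in each library (the number of genes is in brackets; points are libraries, bars the mean of 3, axes start at 0). EV replicate 3 lies apart from EV replicates 1 and 2 for the p53 targets, the genes repressed by p21 and DREAM, and the ATF4 and CHOP genes.

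Per length of transcript, as mean log2 RPKM and SD over 3 libraries, GDF15 and CDKN1A were among the 3 highest targets in all 4 lines. In EV cells GDF15 (6.93 ± 1.59), CDKN1A (6.09 ± 0.36) and TNFRSF10B (6.06 ± 0.92) had the highest levels, and these 3 do not differ beyond the spread of GDF15. SPATA18 (-3.93 ± 0.17) and FAS (0.28 ± 0.35) had the lowest. In EHF cells GDF15 (8.55 ± 0.08) was followed by CDKN1A (7.68 ± 0.03) and GADD45A (5.97 ± 0.02). In CDX1 cells GADD45A (8.21 ± 0.16) and GDF15 (8.10 ± 0.46) were within their spread of each other, ahead of CDKN1A (7.50 ± 0.12) and PMAIP1 (6.55 ± 0.07). In EHF+CDX1 cells the order was GDF15 (8.35 ± 0.09), CDKN1A (7.17 ± 0.09) and GADD45A (6.27 ± 0.11).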

How the data were processed

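RNA-seq libraries were made with a directional kit and sequenced as paired reads. The authors aligned reads to GRCh38 with Subread 2.0.0 and counted unique reads per RefSeq gene with featureCounts 2.0.0; the deposited counts are raw. To obtain the log2 RPKM values, the authors applied a filter on low CPM, limma voom with quantile normalization and transcript length; these values served for levels between genes. Here, counts of genes at 0.5 CPM or more in at least 3 libraries were fitted in edgeR 4.0.16 (R 4.3.3, TMM factors, quasi-likelihood) on all 12 libraries and tested with glmTreat against 1.5-fold, with Benjamini-Hochberg adjustment at 0.05. Genes outside the filter held 0.0585% of counts. The standard error is the log2 fold change over the root of its F statistic. Alternatives used limma 3.58.1, DESeq2 1.42.0, other scalings, filters and samples. The 1.5-fold tests of edgeR (with and without the replicate block), limma and DESeq2 were first run on simulated counts. The test against no change, the other scalings and the fit on the compared lines alone were not assessed there.

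The members and lists were chosen with earlier results of these data known. Values in every library are given for targets past the test with a log2 fold change of at least 1 against EV, for CDKN1A, MDM2, BAX and PPM1D, and of each list the 3 largest changes. The library values of RRM2B, TNFRSF10B, GDF15, ATF3 and DDIT3 were added after their values were seen. A gene and a marker that were fixed for description are not reported here. Counting intervals and floors cover counting error only.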

Additional observations from a re-analysis of the deposited data

Results flagged for a closer look

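For 14 p53 targets the effect of CDX1 differed with EHF, by the interaction term of edgeR's quasi-likelihood fit tested against a 1.5-fold departure from the sum of the single changes and adjusted over all 15853 genes (3 libraries per line). In 12 the EHF+CDX1 level was below that sum on the log2 scale (36.4% of the targets; 18% of all genes). The interactions were -3.17 ± 0.37 for GADD45A, -3.17 ± 0.30 for PMAIP1, -2.34 ± 0.20 for CDKN1A, -1.96 ± 0.16 for PPM1D, -1.49 ± 0.29 for BBC3, -1.35 ± 0.11 for AEN, -1.23 ± 0.11 for RRM2B, -1.23 ± 0.13 for TIGAR, -1.17 ± 0.12 for BTG2, -1.13 ± 0.22 for TRIAP1, -1.08 ± 0.18 for BAX and -0.99 ± 0.17 for ZMAT3. In 2 it was above the sum (6.06%; 20.2% of all genes), 1.63 ± 0.19 for TP53I3 and 1.83 ± 0.15 for FDXR. The interaction is the change from EHF to EHF+CDX1 cells less that from EV to CDX1 cells, and no target was called in the first. It uses the same CDX1 and EV libraries as the calls in CDX1 cells and is not separate from them. CDX1 RNA was higher in EHF+CDX1 than in CDX1 cells, and these lines differ in G418 selection, so the doses were not fixed. The adjusted p ran from 8.03e-06 (CDKN1A) to 0.0156 (ZMAT3). BAX, BBC3, ZMAT3 and TRIAP1 lost the call with limma voom (adjusted p = 0.175, 0.0505, 0.0863 and 0.0615), and ZMAT3 and TRIAP1 also with DESeq2 (0.0846 and 0.0757). With 3 libraries in a line, single libraries were not tested as outliers.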

How the results depend on the processing

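Of 1183 values of named genes over all alternatives, 1102 kept direction and side of the threshold, 73 no longer passed it, 5 newly passed it and 3 changed sign. Many alternatives leave out 1 library, often of a line outside the comparison, and could change little: without EHF replicate 1 all 57 values stayed. With other methods more was lost. Limma voom lost 15 and kept 41, the deposited log2 RPKM values lost 14 and kept 42, total counts lost 12 and kept 44, and DESeq2 lost 10 and kept 47. The sign changes were all MDM2 in CDX1 against EV cells, -0.0772 with total counts, -0.0497 with limma voom and -0.0503 with the deposited log2 RPKM values. Tested against no change in place of 1.5-fold, the p53 targets higher and lower numbered 14 and 1 in EHF against EV, 18 and 4 in CDX1 against EV, 13 and 3 in EHF+CDX1 against EV, 1 and 5 in EHF+CDX1 against EHF, and 9 and 18 in EHF+CDX1 against CDX1 cells. The shares of all genes for these counts stand with each comparison above. With total counts, 4 fell in CDX1 against EV (32.3% of all genes), and 8 were higher (32%) and 5 lower (11.1%) in EHF+CDX1 against CDX1 cells. That last comparison gave 2 higher and 7 lower with DESeq2, where the share of all genes was not computed. It gave 6 lower with limma voom (16.3% of all genes) and 5 lower with the deposited log2 RPKM values (15.5%). A fit on the compared lines alone gave 1 lower in EHF+CDX1 against EHF cells. Leaving out 1 library at a time gave 4 to 7 higher and 0 to 0 lower in EHF against EV, 11 to 15 and 2 to 3 in CDX1 against EV, 2 to 6 and 0 to 1 in EHF+CDX1 against EV, 0 to 0 and 0 to 0 in EHF+CDX1 against EHF, 2 to 4 and 9 to 13 in EHF+CDX1 against CDX1 cells, and 2 to 2 above and 12 to 18 below additive for the interaction. The upper ends came from leaving out EV replicate 3, except where the range is of 1 value, for the 1 lower target in EHF+CDX1 against EV cells (without EV replicate 1, EV replicate 2 or CDX1 replicate 1) and for the 4 higher in EHF+CDX1 against CDX1 cells, and the 2 higher there came without EHF+CDX1 replicate 2. Among the fits that leave out 1 library, shares of all genes were computed only for that without EV replicate 3, given above. Total counts alone moved the share of higher calls over all genes to 69.2% from 52.9% for the interaction. Same-numbered libraries did not deviate together (correlations from -0.0653 to 0.0802, 0 of 18 over 0.1), so the numbers do not pair them; with the replicate block 4, 12 and 3 targets rose against EV in EHF, CDX1 and EHF+CDX1 cells, as without it. The cause of these changes was not tested. The depth of the libraries limits SPATA18 and EDA2R, whose counts were low.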
